A study of Homo sapiens with 10 samples.

Results

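The long non-coding RNAs described here are the genes whose symbol is LINC followed by digits and whose mean over the 10 libraries reached 1 TPM (transcript abundance corrected for transcript length and scaled to the same total in every library) in HCT116 cells, a human colorectal carcinoma line. They were chosen by their symbol and by that mean level, which left 102 genes of the 2229 LINC symbols among the 58050 genes of the table. LINC01405 was set against the other 101 because its change between the groups was already known, so its values in this comparison are a description and are not tested. Polyadenylated RNA was sequenced from 5 cultures of HCT116-WT cells and from 5 cultures of HCT116-CD276KO cells, in which Cas9 ribonucleoprotein with a guide against CD276 had been electroporated. The protocol names a scrambled guide as a control, and whether the HCT116-WT cultures received it is not given in the labels. The knockout cells were grown from 1 clone, so loss of CD276 and other properties of that clone cannot be told apart. The protocol names different culture flasks, and whether each replicate had its own flask is not given. The p-values measure the spread between these cultures.

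LINC symbols are given to transcripts with no recognised protein and no host gene to name them after, and most lie between protein-coding genes. Such RNAs are typically spliced and polyadenylated but low in abundance and restricted to few tissues, and the function of most is not known. Some act on chromatin or transcription near their own locus, some bind proteins or microRNAs elsewhere in the cell, and for some the act of transcription or a short peptide matters more than the RNA. Several, LINC00511 among them, are often described in epithelial tumours.

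The labels were checked on the targeted gene first. CD276 stood at 38.1 to 53.6 TPM in the HCT116-WT libraries and at 4.4 to 7.42 TPM in the HCT116-CD276KO libraries, a log2 fold change of -2.85 (standard error, SE, 0.13, adjusted p = 1.39e-07 in limma). The labels give a mean of 40000000 reads per library with a coefficient of variation of 11.1%. The reads of each library are not kept in TPM, so no counting interval is given. The epithelial markers EPCAM, KRT8, KRT18, KRT19 and CDH1 summed to between 4173 and 4942 TPM in HCT116-WT and to between 3306 and 3773 TPM in HCT116-CD276KO libraries, with all 5 lower in mean. The part of this difference in the LINC values was not tested. Of the markers of other cell types, MS4A1 was listed at 0 throughout, PTPRC reached 0.13 TPM, DCN 0.03 TPM and CDH5 0.02 TPM at most. CD68 (6.01 to 14.8 TPM) and COL1A1 (4.54 to 8.84 TPM) made up nearly all of the summed blood and immune list (9.08 to 14.9 TPM in HCT116-WT, 6.05 to 13.0 TPM in HCT116-CD276KO) and of the summed fibroblast list (5.87 to 8.87 TPM and 4.54 to 7.44 TPM). The endothelial list stayed at or under 0.59 TPM.

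A pair of these genes, LINC01123 and LINC01106, could hardly be told apart by short reads, and their promoters are shown first because that limits what can be said of LINC01123 further on. Both lie on chromosome 2 on opposite strands. The promoter windows of RefSeq on GRCh38, from 250 bases before to 50 bases after the start, are chr2:109986730-109987029 on the plus strand and chr2:110384487-110384786 on the minus strand. A run of 289 bases was identical in both, and capitals mark the 11 bases of each window outside that run.
LINC01123: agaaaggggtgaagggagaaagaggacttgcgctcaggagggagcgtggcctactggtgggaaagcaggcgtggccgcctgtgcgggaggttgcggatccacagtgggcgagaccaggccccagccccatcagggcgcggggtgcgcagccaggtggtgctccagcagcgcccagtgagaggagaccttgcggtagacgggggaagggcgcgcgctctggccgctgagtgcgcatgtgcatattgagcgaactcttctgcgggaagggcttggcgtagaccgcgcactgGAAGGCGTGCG
LINC01106: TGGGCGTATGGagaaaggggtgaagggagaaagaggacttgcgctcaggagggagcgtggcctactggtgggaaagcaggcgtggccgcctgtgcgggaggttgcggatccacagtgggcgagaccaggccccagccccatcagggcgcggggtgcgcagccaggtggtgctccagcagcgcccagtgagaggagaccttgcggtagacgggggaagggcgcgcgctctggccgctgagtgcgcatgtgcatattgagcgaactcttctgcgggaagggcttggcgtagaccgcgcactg
The identity went on into the RNA. Of the 50-base words in the transcripts of LINC01123, 92.2% also occurred in transcripts of other genes of the table and 78.1% in LINC01106, and of the words of LINC01106, 87.2% occurred in LINC01123. The reads were 50 bases long, so a read from the shared words matches both genes.

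Promoters of 2 further genes whose level differed between the groups are shown as examples of the class, one of a gene that was lower and one of a gene that was higher in HCT116-CD276KO cells. LINC00941 (chr12:30795431-30795730, plus strand) held GGGCGG, the core of a GC box, on either strand. GENCODE starts this gene at 30755167, so the RefSeq window lies inside the span that GENCODE gives it. LINC01806 (chr2:161244489-161244788, plus strand) held TATAAA on either strand in overlapping matches and GGGCGG on the minus strand. Capitals mark these matches.
LINC00941: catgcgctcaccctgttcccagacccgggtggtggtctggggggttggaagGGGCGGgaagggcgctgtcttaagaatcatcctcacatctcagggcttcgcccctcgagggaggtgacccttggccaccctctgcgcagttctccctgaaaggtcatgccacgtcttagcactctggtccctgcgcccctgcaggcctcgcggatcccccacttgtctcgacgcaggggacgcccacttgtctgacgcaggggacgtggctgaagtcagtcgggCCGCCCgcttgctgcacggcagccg
LINC01806: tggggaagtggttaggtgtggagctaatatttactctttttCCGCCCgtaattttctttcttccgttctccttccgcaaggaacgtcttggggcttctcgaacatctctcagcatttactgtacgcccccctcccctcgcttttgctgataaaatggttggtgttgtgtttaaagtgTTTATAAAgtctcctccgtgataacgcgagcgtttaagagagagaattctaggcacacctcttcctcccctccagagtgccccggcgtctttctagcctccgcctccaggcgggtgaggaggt
In the 73 members with a RefSeq promoter, GGGCGG was found on at least 1 strand in 38 (52.1%), against 45.0% of all 35116 promoters of the same length. TATAAA was found in 10 (13.7% against 11.5%), CCAAT, a box near many promoters, in 34 (46.6% against 34.6%), and TGACTCA, the AP-1 consensus, in 7 (9.59% against 4.95%). CAGGTG, an E-box, was found in 19 (26.0% against 20.6%), CAGCTG in 16 (21.9% against 17.9%), CACGTG in 4 (5.48% against 7.26%) and TGACGTCA in 2 (2.74% against 1.85%). The median GC share of these windows was 59.3%, against 58.7% over all promoters. These matches are letters in a window and were not tested.

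Most members were expressed at a low level. Of the 102, 15 had a mean of at least 10 TPM, 14 of 5 to under 10 TPM, 26 of 2 to under 5 TPM and 47 of under 2 TPM. Their median was 2.09 TPM, against 16.2 TPM over all 13581 genes that reached the same limit. In 96 members both group means reached 1 TPM. In 2 the HCT116-WT mean was under 1 TPM and in 4 the HCT116-CD276KO mean. Just inside the limit were LINC02340, LINC01876 and LINC00910 at means of 1.01, 1.00 and 1.00 TPM, and just outside it LINC01670, LINC02986 and LINC01588 at 0.986, 0.972 and 0.966 TPM.

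**Figure D1:**
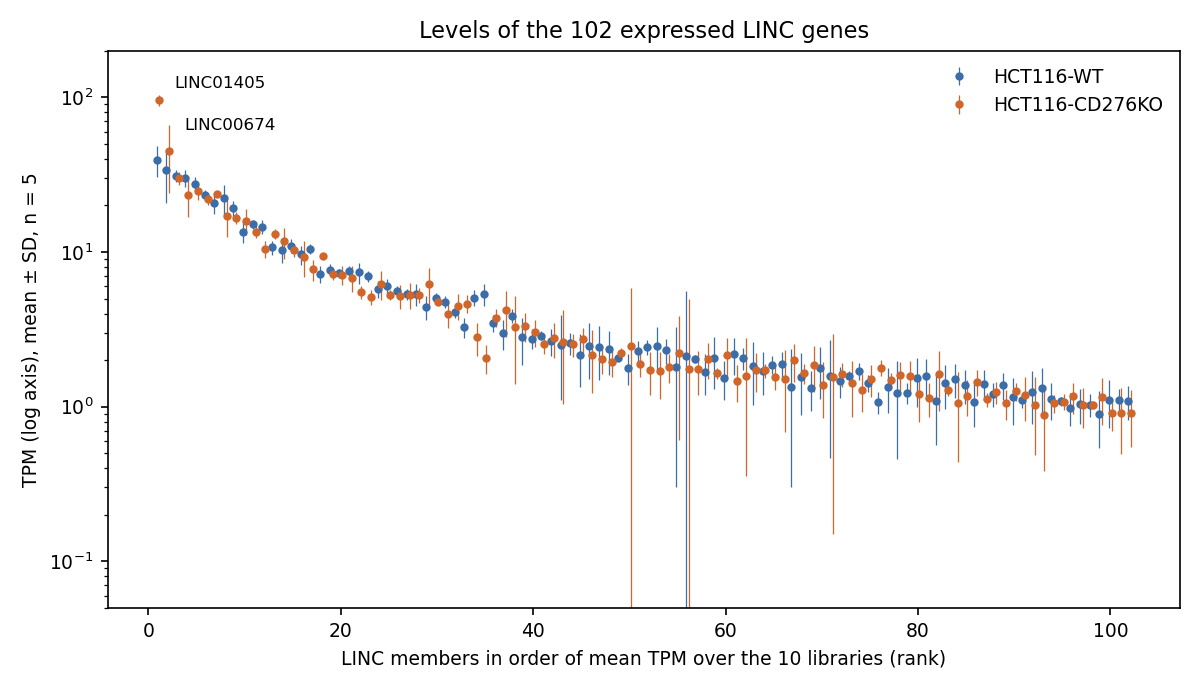
Mean TPM (log axis) of the 102 LINC genes in HCT116-WT (blue) and HCT116-CD276KO cells (orange), in order of the mean over the 10 libraries. Bars are the SD of 5 cultures, and lower bars that reach 0 end at the axis; LINC01405 is the highest in both groups, and 47 genes are under 2 TPM.

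LINC01405 was the most abundant member in both groups. Replicates 1 to 5 of HCT116-WT held 31.1, 36.6, 52.5, 44.1 and 32.2 TPM, and those of HCT116-CD276KO held 91.1, 103, 103, 87.6 and 91.6 TPM. Every HCT116-CD276KO value was above every HCT116-WT value, and the lowest of the first exceeded the highest of the second by more than the spread within either group. The mean was 39.3 ± 8.96 TPM (SD, n = 5) in the first group against 95.4 ± 7.43 TPM (SD, n = 5) in the second, a 2.43-fold ratio and a log2 fold change of 1.28 (SE 0.13) on the log2(TPM + 1) scale. In bulk RNA, more cells that hold a transcript and more of it per cell cannot be told apart.

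Set against the rest of the class, LINC01405 made up 6.95% ± 1.55 (SD, n = 5) of the summed TPM of the 102 genes in HCT116-WT and 15.9% ± 1.82 (SD, n = 5) in HCT116-CD276KO libraries. The sum of the other 101 was 526 ± 15.5 TPM (SD, n = 5) and 508 ± 33.8 TPM (SD, n = 5), from 508 to 543 and from 472 to 545 TPM, so the groups overlapped. The next largest log2 fold change upwards was that of LINC02356 at 0.47, where the groups overlapped and the adjusted p-value was 0.364 from limma. In level, the nearest member was LINC00674. In HCT116-WT, at 33.7 ± 12.8 TPM (SD, n = 5), it was within the spread of LINC01405. In HCT116-CD276KO, at 45.0 ± 20.8 TPM (SD, n = 5), it reached 80.4 TPM in replicate 5, under the lowest LINC01405 value of 87.6 TPM. GENCODE gives LINC00674 1 transcript of 160 bases, against a median of 869 bases for LINC01405. At such a length a given TPM rests on fewer reads.

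LINC01405 (ENSG00000185847) lies on the plus strand of chromosome 12 of hg38 from 110934590 to 110959093, where GENCODE gives it 13 transcripts of up to 3 exons and RefSeq lists it as VHRT. The nearest protein-coding gene on one side is MYL2, the regulatory light chain of ventricular and slow skeletal muscle myosin, 13147 bases away, and on the other CUX2, a homeobox gene, 75072 bases away. MYL2 stood at 2.60 TPM in mean in HCT116-WT and at 2.48 TPM in HCT116-CD276KO cells, a log2 fold change of -0.04 (adjusted p = 0.850 in limma). CUX2 was under the limit of 1 TPM and was not tested. The other striated muscle markers were low, with MYH7 at 0.01 TPM, CKM at 0.05 TPM and ACTA1 and TNNT2 at 0.18 TPM at most. LINC01404, a gene on the opposite strand inside the span of LINC01405, holds 18.5% of its 50-base words. It was listed at 0.31 TPM at most in any library. The libraries were directional, but whether the counting used strand is not given in the sources used here.

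Of the 101 members other than LINC01405, 7 passed an adjusted p-value of 0.05 in limma, or 6.93%. The same was true of 4.87% of all 13581 genes tested. With LINC01405, which was chosen for its known change and is not tested here, the count was 8 of 102, or 7.84%. Lower in HCT116-CD276KO cells were 5 of the 101, or 4.95%, near the 4.09% lower over all genes, and higher were 2 of the 101, or 1.98%, against 0.781%. An unadjusted p-value under 0.05 was found for 14 of the 101, or 13.9%, against 21.9% of all genes. The share of the 102 members past the adjusted threshold fell under that of all genes when any of 3 single libraries was left out. Without HCT116-WT replicate 3, for example, it was 2.94% against 4.88%. The share of the 101 others was under that of all genes with each single library left out, except HCT116-WT replicate 4 (3.96% against 3.10%). An additional 2-fold change was reached by LINC01405 and by 1 of the 101 others, LINC02331. Over all genes it was 66 of 13581, or 0.486%. The groups did not overlap in 9 members including LINC01405, or 8.82%, and in 8 of the 101 others, or 7.92%, which is near the 7.61% of all genes. The median log2 fold change was -0.06 over the members and -0.09 over all genes, and 39 members had a positive value. This split moved with the scaling: 56 of 102 were positive after median-of-ratios scaling and 58 after quantile normalization.

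**Figure D2:**
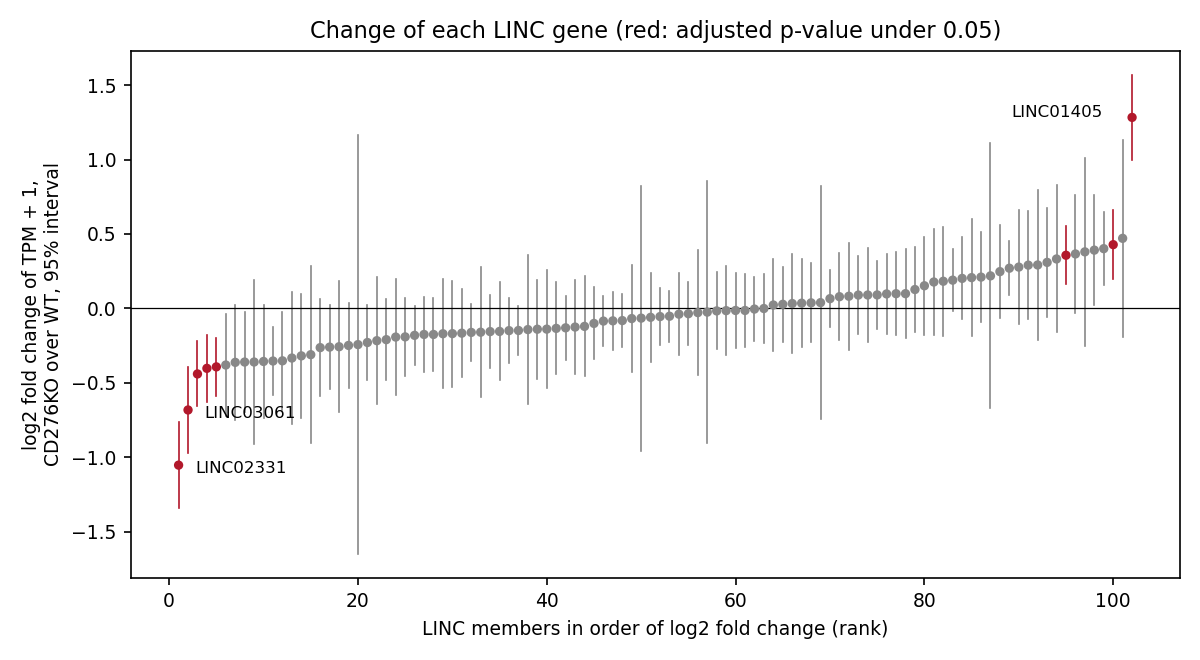
Log2 fold change of TPM + 1, HCT116-CD276KO over HCT116-WT, of the 102 LINC genes in order, with 95% intervals from limma. Genes with an adjusted p-value under 0.05 are red. LINC01405 (1.28, chosen for its known change and not tested here) and LINC02331 (-1.05) are at the ends.

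LINC02331 showed the largest fall. Its values were 4.92, 5.97, 4.15, 6.35 and 5.41 TPM in replicates 1 to 5 of HCT116-WT and 2.67, 1.48, 2.05, 2.29 and 1.85 TPM in those of HCT116-CD276KO. The groups did not overlap, and the means fell from 5.36 ± 0.868 to 2.07 ± 0.449 TPM (SD, n = 5 each). The log2 fold change was -1.05 (SE 0.13, adjusted p = 0.000707 in limma). The gene is on the minus strand of chromosome 14 from 53685139 to 53850882, and shared no 50-base word with another gene of the table. The nearest protein-coding gene on one side, at 98854 bases, is BMP4, a secreted ligand of the bone morphogenetic protein family. BMP4 fell from a mean of 85.7 to 60.4 TPM, by 0.50 on the log2 scale (adjusted p = 0.00432 in limma). On the other side DDHD1, a phospholipase, had a log2 fold change of -0.26 (adjusted p = 0.248).

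LINC03061 was also lower. It had 5.41, 5.24, 4.02, 5.42 and 5.25 TPM in HCT116-WT and 3.62, 2.16, 2.07, 3.02 and 3.20 TPM in HCT116-CD276KO, in the order of the replicates. The lowest HCT116-WT value, in replicate 3, was above every HCT116-CD276KO value. The log2 fold change was -0.68 (SE 0.13, adjusted p = 0.0132 in limma). It lies on the plus strand of chromosome 13 from 109269634 to 109278512, with the myosin gene MYO16 on one side, under 1 TPM in mean, and IRS2, an adaptor of the insulin receptor, on the other (log2 fold change -0.19, adjusted p = 0.281). LINC02331 and LINC03061 kept an adjusted p-value under 0.05 in all 16 alternative fits run, among them the 10 that each left out 1 library.

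The other 5 members were close to the threshold, and each lost it when most of the single libraries were left out. LINC01123 fell from 14.6 ± 1.49 to 10.5 ± 1.32 TPM (SD, n = 5 each), from a range of 12.4 to 16.4 to one of 8.54 to 11.7 TPM, with no overlap. Its log2 fold change was -0.44 (SE 0.10, adjusted p = 0.0288 in limma). LINC01106, which shares most of its sequence, stood at 1.45 to 2.12 and at 1.14 to 1.81 TPM. Its log2 fold change was -0.18 (adjusted p = 0.364). The sum of the pair, which depends little on how reads were divided between them, was 16.4 ± 1.26 and 12.03 ± 1.32 TPM (SD, n = 5 each), from 14.5 to 17.9 and from 10.1 to 13.4 TPM. Reads shared with genes outside the pair can still move this sum. Of the words of LINC01123, 92.2% occurred in other genes but 78.1% in LINC01106. Beyond LINC01123, at 87730 bases, lies MALL, a membrane protein of the MAL family, with a log2 fold change of -0.35 (adjusted p = 0.0356). The protein-coding gene on the other side has no symbol and no value in these data.

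LINC00941, on chromosome 12 from 30755167 to 30802602, fell from 6.98 ± 0.586 to 5.09 ± 0.565 TPM (SD, n = 5 each). Its ranges were 6.14 to 7.48 and 4.58 to 6.0 TPM and did not overlap (log2 fold change -0.39, SE 0.09, adjusted p = 0.0292 in limma). It overlaps CAPRIN2, an RNA-binding protein gene on the opposite strand, whose own log2 fold change was -0.25 (adjusted p = 0.338). Reads in the overlap are uncertain if strand was not used. The genes flanking LINC00941 were IPO8 (log2 fold change -0.49, adjusted p = 0.197) and TSPAN11, under 1 TPM in mean. LINC02987 on chromosome 19 fell from 10.4 ± 0.783 to 7.70 ± 1.23 TPM (SD, n = 5 each), with a log2 fold change of -0.40 (adjusted p = 0.0486). Its groups overlapped, since HCT116-CD276KO replicate 5 at 9.32 TPM was above HCT116-WT replicate 5 at 9.20 TPM. The genes flanking LINC02987 were ZNF254 (log2 fold change -0.07, adjusted p = 0.754) and UQCRFS1 (0.13, adjusted p = 0.367). They were 3663463 and 1220336 bases away.

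The 2 that were higher were LINC00326 and LINC01806. LINC00326 on chromosome 6, from 132954257 to 133107410, ranged from 0.93 to 1.31 TPM in HCT116-WT and from 1.52 to 2.02 TPM in HCT116-CD276KO cells (log2 fold change 0.43, SE 0.11, adjusted p = 0.0425 in limma). At this level the pseudocount of 1 understates the change, and the ratio of the means was 1.67. LINC00326 lies between RPS12 (log2 fold change 0.23, adjusted p = 0.112) and EYA4, under 1 TPM in mean. LINC01806 on chromosome 2, from 161244720 to 161249095, rose from 7.21 ± 0.916 to 9.47 ± 0.453 TPM (SD, n = 5 each). Its ranges were 5.80 to 8.14 and 8.98 to 10.2 TPM (log2 fold change 0.36, SE 0.09, adjusted p = 0.0438). Of its 50-base words, 18.0% occurred in other genes and 14.8% in PSMD14-DT. The nearest neighbour of LINC01806 was TANK, an adaptor in innate immune signalling, 8490 bases away at a log2 fold change of 0.22 (adjusted p = 0.145). On the other side was PSMD14, a deubiquitinase of the proteasome, at 0.02 (adjusted p = 0.838).

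**Figure D3:**
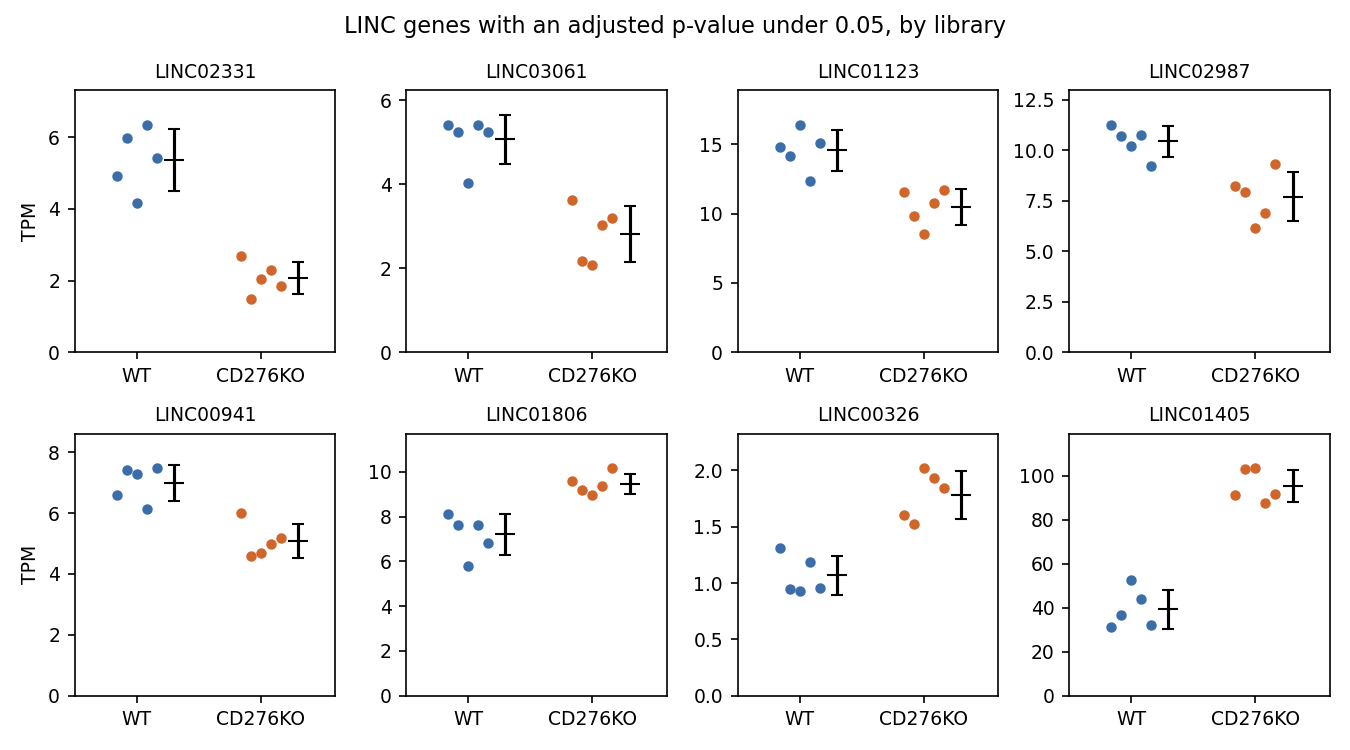
TPM of the 8 LINC genes with an adjusted p-value under 0.05, among them LINC01405, which was chosen for its known change. Each culture is 1 point (5 per group, blue HCT116-WT, orange HCT116-CD276KO), with the mean ± SD in black and each axis from 0. LINC02987 is the panel whose groups overlap, at 9.20 and 9.32 TPM.

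Of the 10 members with the highest mean, LINC01405 apart, none passed the adjusted p of 0.05 in limma and 1, LINC00511, had an unadjusted p-value under 0.05. Of all 15 at 10 TPM or more, LINC01405 again apart, only LINC01123 passed. Over all genes tested 4.87% passed the adjusted and 21.9% the unadjusted threshold, so lists this short could hold few or none. LINC02210 was at 31.1 ± 2.84 and 30.0 ± 3.04 TPM (SD, n = 5 each), with a 95% interval of the log2 difference from -0.25 to 0.14. LINC01234 was at 27.5 ± 2.97 and 24.7 ± 2.97 TPM, with an interval from -0.37 to 0.07, and LINC00869 at 23.4 ± 1.85 and 22.01 ± 1.78 TPM, with an interval from -0.25 to 0.08. A change of 2-fold lies outside these 3 intervals. LINC00674 had a wide interval, from -0.25 to 1.01, since its HCT116-CD276KO values ran from 27.5 to 80.4 TPM. LINC00467, LINC03057, LINC00623 and LINC00963 had log2 fold changes of 0.19, -0.36, -0.18 and 0.21 and adjusted p-values from 0.253 to 0.373. LINC00662 had a log2 fold change of -0.08 (adjusted p = 0.591).

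LINC00511, on the minus strand of chromosome 17 from 72290091 to 72640472, stood at 33.7, 25.8, 29.0, 34.6 and 27.2 TPM in HCT116-WT and at 34.8, 19.1, 18.5, 22.02 and 22.3 TPM in HCT116-CD276KO, in the order of the replicates. HCT116-CD276KO replicate 1 was the highest of all 10 libraries, and the other 4 were below every HCT116-WT value. With all libraries the log2 fold change was -0.38 (adjusted p = 0.184 in limma), and without that library it was -0.53 (adjusted p = 0.0189). The nearest protein-coding gene, 5477 bases away on the same strand, is SLC39A11, a zinc transporter, with a log2 fold change of -0.18 (adjusted p = 0.241). On the other side, at 163675 bases, is SOX9, a transcription factor of intestinal progenitor cells, with a log2 fold change of -0.48 (adjusted p = 0.00950). LINC00460 on chromosome 13 had a log2 fold change of -0.35 (adjusted p = 0.0836), and its neighbour EFNB2, a membrane-bound ephrin ligand 105430 bases away, one of -0.96 (adjusted p = 0.000161).

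Of the 129 tested protein-coding genes that directly flank a member, 8 had an adjusted p-value under 0.05, or 6.20%, near the 5.29% of all protein-coding genes tested. All 8 were lower, as were 528 of the 617 protein-coding genes past the threshold, or 85.6%. Besides BMP4, MALL, SOX9 and EFNB2 these were RBM19 beside LINC01234, BCL7A beside LINC02985, JAG2, a Notch ligand, beside LINC02298 and PEDS1 beside LINC01273, with log2 fold changes from -0.54 to -0.27. Across the 101 members without LINC01405 the log2 fold change of the member and of its nearest tested protein-coding gene had a weak correlation (Pearson r = 0.28, Spearman rho = 0.27 across genes). Over 13472 genes the Pearson r was 0.11 and the Spearman rho 0.058. Over the 696 other genes of lncRNA biotype that were tested they were 0.00058 and 0.018. Overlapping genes were not counted as nearest. The points share their libraries and are not independent replicates, so no test is given.

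The members lay on 21 chromosomes, with 11 each on chromosomes 1 and 12. By GENCODE 94 were of lncRNA biotype and 8 of a transcribed pseudogene biotype, among them LINC00674, LINC02210 and LINC00869. No protein-coding gene overlapped 91 of them, 7 overlapped one on the same strand and 5 one on the opposite strand, with LINC00294 in both counts. In 5 a protein-coding gene started divergently within 2000 bases.

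Members varied more between cultures than most genes. The median coefficient of variation within the groups was 22.5% for the 102 members and 13.3% for all genes tested. Among genes of 1 to under 5 TPM it was 26.3% for 73 members and 21.9% for all 3381 genes, and among genes of 5 to under 40 TPM it was 11.98% for 28 members and 13.0% for all 6401 genes. For the 10 members with at least 50% of their 50-base words in other genes the median was 43.5%, against 21.4% for the other 92. LINC02193, with 54.8% of its words shared, stood at 8.23 TPM in HCT116-WT replicate 2 and at 0.15 to 0.98 TPM in the other 4, and at 7.49 TPM in HCT116-CD276KO replicate 3 and at 0.05 to 0.63 TPM in the other 4. LINC00680, with all words shared, ranged from 0.52 to 3.58 and from 0.74 to 3.98 TPM. The 95% interval of the group difference of LINC02193 ran from -1.65 to 1.16 on the log2 scale.

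**Figure D4:**
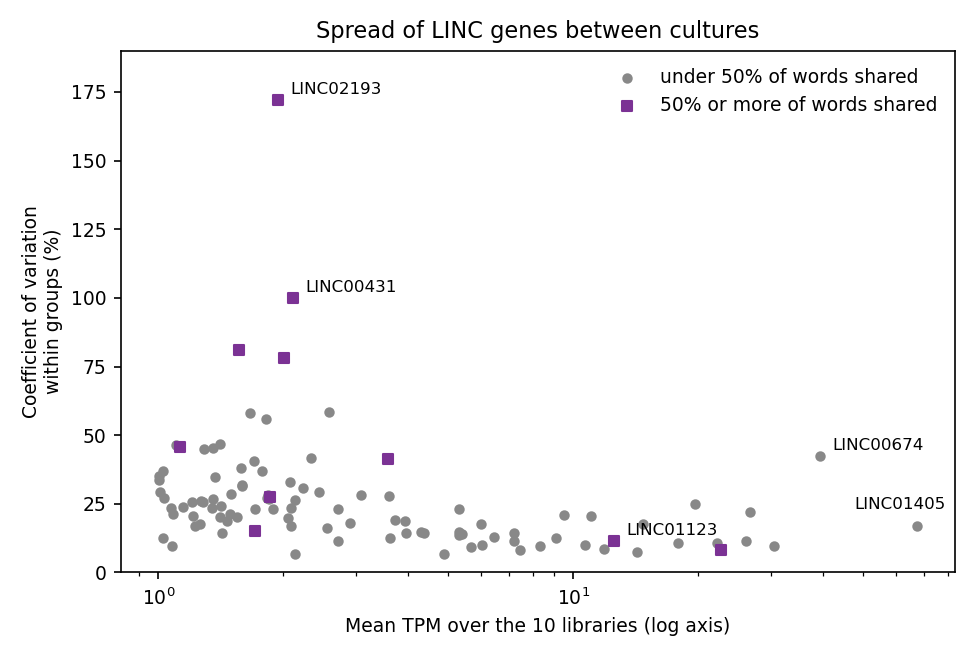
Coefficient of variation within groups (%, root mean square of the 2 groups of 5) of the 102 LINC genes against mean TPM (log axis). Squares mark the 10 genes with at least 50% of their 50-base words in other genes; LINC02193 (172%) and LINC00431 (99.9%) vary most.

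Other long non-coding RNAs are given for comparison, without a test between the classes. Of all genes tested, 4.87% had an adjusted p-value under 0.05 in limma, so short lists could hold few such genes or none. Of 209 genes with symbols ending in AS and a number, which run antisense to a named gene, 4 passed, or 1.91%. Their median log2 fold change was 0.002. Of 22 SNHG genes, hosts of small nucleolar RNAs, none passed in limma and 5, or 22.7%, had an unadjusted p-value under 0.05, near the 21.9% of all genes, with a median of 0.12. Of 12 microRNA host genes none passed in limma and 2, or 16.7%, had an unadjusted p-value under 0.05, with a median of -0.007. Of 28 listed well known lncRNAs outside the class 20 were tested and 2 passed, or 10%, against 4.87% of all genes. These were UCA1, which fell from 51.9 ± 2.77 to 19.8 ± 3.43 TPM (SD, n = 5 each), and CRNDE, which rose from 6.27 ± 0.661 to 10.2 ± 1.35 TPM (SD, n = 5 each).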

How the data were processed

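RNA of HCT116-WT and HCT116-CD276KO cells was sequenced (5 cultures each). The authors mapped single reads to hg38 with STAR 2.5.2b, quantified Ensembl 86 genes with RSEM 1.3.0 and featureCounts 1.5.1, and deposited TPM values; which program gave them is not named. Replicates were not pooled, and the reads of each library are not kept in TPM. Of 58050 identifiers 56947 had a symbol in the reference names. Genes reaching 1 TPM in mean (13581) were fitted on log2(TPM + 1) by group with limma 3.58.1 (R 4.3.3, trended moderation, two-sided), with Benjamini-Hochberg adjustment over all of them. Thresholds were an adjusted p-value of 0.05 and a 2-fold change. The fit was also run on simulated data with independent noise and 2-fold changes, which does not test it on the smaller changes described here.

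The members and lists were chosen with earlier results of these data known. Genes were named if they were LINC01405, among the 10 most abundant members, past the threshold, changed 2-fold, near the limit of 1 TPM, listed by RefSeq under another symbol, on a short list of known LINC genes, or flanked a member past the threshold; LINC01106, LINC01404, other flanking genes, LINC02356, members named for their spread and the class examples were named after their values were seen. Positions came from GENCODE 44 on hg38, promoters from RefSeq on GRCh38.p14 (all 102 members matched a RefSeq gene by symbol or synonym, 73 of them a promoter), and motifs were searched on both strands. The 50-base words were compared on both strands between GENCODE 44 transcripts of genes in the table. Alternatives tried were testing every gene above 0 TPM, a pseudocount of 0.1, median-of-ratios scaling, quantile normalization, a replicate block, removal of trends with transcript length and GC content (local regression, span 0.3, 13472 genes), a threshold of 1.5-fold, other limits on the level and the omission of each library. Python 3.11.15, pandas 2.3.3, numpy 2.4.6, scipy 1.17.1, biopython 1.88 and matplotlib 3.10.9 were used.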

Additional observations from a re-analysis of the deposited data

Results flagged for a closer look

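In 70 groups of 5 values, for the named LINC genes, CD276 and the genes that flank members past the threshold, the gap of the highest or lowest value to its neighbour was divided by that group's whole range. The share was over 0.71, which chance passes in about 1 of 20 groups, in 4 groups, where chance gives 3.5. LINC03061 stood at 4.02 TPM in HCT116-WT replicate 3 and at 5.24 to 5.42 TPM in the other 4, a share of 0.871. LINC00511 had 34.8 TPM in replicate 1 of HCT116-CD276KO and 18.5 to 22.3 TPM in the other 4, a share of 0.771. LINC01876 had 1.65 TPM in replicate 1 of HCT116-CD276KO and 0.65 to 0.79 TPM in the other 4, a share of 0.86. PSMD14, beside LINC01806, had 178 TPM in replicate 5 of HCT116-CD276KO and 164 to 168 TPM in the other 4, a share of 0.721.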

How the results depend on the processing

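Members past an adjusted p-value of 0.05 in limma numbered 8, or 7 without LINC01405. It was 3, or 2 without LINC01405, with all genes above 0 TPM tested, where more genes enter the adjustment, and with a replicate block, for which the cause was not tested. The shares of all genes were then 1.76% and 2.78%, against 2.94% of the members in both. Without LINC01405 it was 1.98% of the members in both, which is under the 2.78% of all genes with the replicate block. After removal of the length and GC trends it was 12, or 11 without LINC01405, with all 8 among them, while the share of all genes rose from 4.87% to 9.48%. Leaving out 1 library gave 3 to 7, or 2 to 6 without LINC01405: 3 without HCT116-WT replicate 1, 2, 3 or 5 or HCT116-CD276KO replicate 2, 3 or 4, 5 without HCT116-WT replicate 4, 6 without HCT116-CD276KO replicate 5 and 7 without HCT116-CD276KO replicate 1. The share of all genes moved from 2.53% to 6.31% over these 10 fits, and was above that of the members without HCT116-WT replicate 3 (4.88% against 2.94%) and without HCT116-CD276KO replicate 2 (3.40%) or 3 (3.00%). The 3 were LINC01405 (chosen for its known change), LINC02331 and LINC03061 each time. The number past both thresholds was 2, and 1 after median-of-ratios scaling, quantile normalization or removal of the trends, and 1 to 2 with 1 library left out (1 without HCT116-WT replicate 4 or HCT116-CD276KO replicate 2), as LINC02331 is near 2-fold. The median log2 fold change of the members (-0.06) turned to 0.019, 0.040 and 0.031 after median-of-ratios scaling, quantile normalization and removal of the trends, while that of all genes (-0.09) turned to 0.0037, 0.0073 and 0.012, and with 1 library left out it was -0.081 to -0.040. LINC02210 (0.043, 0.059 and 0.043), LINC00869 (0.012, 0.023 and 0.0067) and LINC00662 (0.0092, 0.055 and 0.035) turned positive in the same 3 settings, with no call. LINC01405 stayed between 1.21 and 1.39, LINC02331 between -1.34 and -0.94, LINC03061 between -0.85 and -0.53 and CD276 between -3.04 and -2.74. A limit of 2 TPM left 55 members. Correlations of same-numbered libraries' deviations ran from -0.18 to 0.12, so no effect shared by same-numbered cultures was seen. Whether the numbers pair the cultures is not given in the labels.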

Other observations

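Among the 2229 LINC symbols, 1385 were listed at 0 in all 10 libraries and 742 were above 0 in at least 1 library with a mean under 1 TPM. In 14 of the latter 1 of the group means reached 1 TPM. RefSeq lists 3 members under another symbol: LINC01405 as VHRT, LINC00888 as SNHG33 and LINC02340 as LINC00412. LINC00659 and LINC01315 had no overlap between the groups without passing the threshold. LINC00659 ranged from 2.49 to 3.73 TPM in HCT116-WT and from 3.95 to 5.44 TPM in HCT116-CD276KO cells (adjusted p = 0.0661 in limma), and LINC01315 from 8.97 to 11.8 and from 12.1 to 14.2 TPM (adjusted p = 0.0931).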
